A study of Danio rerio with 6 samples.

Results

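The genes described here form the Cxcl12 chemokine axis of the zebrafish, chosen by symbol from the gene table: the ligand genes *cxcl12a* and *cxcl12b*, the receptor genes *cxcr4a* and *cxcr4b*, and the atypical receptor genes *ackr3a* and *ackr3b*. All 6 were found, each as a single row, among 32057 genes. They were compared between EGFP+ cells of embryos that had received an *nlrc3* morpholino (nlrc3 MO, 3 samples) and EGFP+ cells of embryos that had received a control morpholino (control MO, 3 samples), an antisense oligonucleotide without an intended target. Every embryo carried the Tg(fli1a:eGFP) transgene, in which the promoter of *fli1a*, a gene of endothelium that is also active in migrating cranial neural crest, drives the fluorescent protein, and the sample labels place all sorts at 28 hpf (hours post-fertilization). Some figure legends of the study name a slightly earlier stage for the RNA sequencing. Both morpholinos went into embryos at the one-cell stage, so every tissue was exposed, and according to the methods the *nlrc3* solution was the more concentrated. The labels do not say whether the 3 samples of a group came from separate clutches, so p-values measure only the spread between these samples.

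Cxcl12 is a secreted chemokine that attracts or retains cells carrying Cxcr4, a seven-helix receptor that signals through inhibitory G proteins. Ackr3, formerly called Cxcr7, binds the same ligand without the usual G protein signal and takes it up, which clears ligand from the tissue. Zebrafish keep a pair of genes for each of these proteins. In fish, *cxcl12a* and *cxcr4b* are best known for guiding the lateral line primordium and germ cells, with *ackr3b* shaping the ligand, while *cxcr4a* and *cxcl12b* are known from blood vessel patterning. In mammals the axis holds blood stem cells in their niche.

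Expression was given as FPKM, a level scaled to transcript length and library size, so levels of different genes can be set side by side. The summed FPKM was 678620 to 687387 in nlrc3 MO samples and 524846 to 525567 in control MO samples, and read depth is unknown. Differences were fitted with limma on log2(FPKM + 0.1) over 15155 genes, those reaching 0.5 FPKM in no fewer than 3 samples. A gene was called where the Benjamini-Hochberg adjusted p lay below 0.05 and the fold lay above 2 or below 0.5. On this scale the change of low genes is understated. The fit called 20.4% of tested genes lower and 4.89% higher in nlrc3 MO cells (3091 and 741 genes), which became 2510 lower and 1164 higher after median-of-ratios scaling and 4620 lower and 295 higher as TPM, FPKM rescaled to the same total in every sample. Over all tested genes the median change was -0.22 on the log2 scale, against -0.01 and -0.60 under these other scalings, so single changes are best read against that shift. The targeted gene *nlrc3* itself was at 0.193 ± 0.0586 FPKM in nlrc3 MO cells and 0.87 ± 0.2 FPKM in control MO cells (SD, n = 3 each), low in both.

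The gene *ackr3a* passed the expression filter only through its control MO samples, so a difference was built into its selection, and its values are given as a description. Of the other 5 genes, 3 were called lower in nlrc3 MO cells (*cxcl12a*, *cxcr4a* and *ackr3b*), none was called higher, and *cxcl12b* and *cxcr4b* stayed inside the fold change limits with opposite signs. Among all tested genes 20.4% were called lower and 4.89% higher. The nlrc3 MO and control MO values did not overlap in any of the genes, which also held for 68.9% of all tested genes. The median log2 fold change of these 5 was -1.83.

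**Figure D1:**
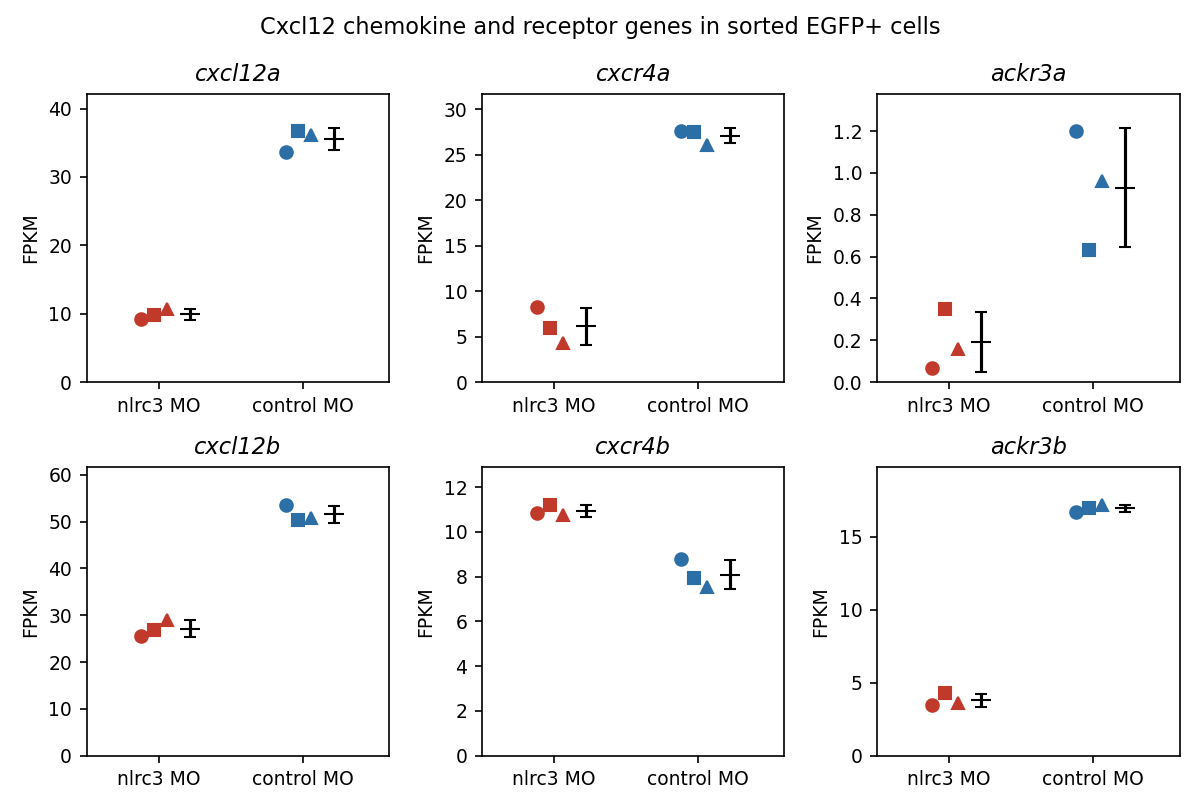
FPKM of the 6 genes in each sample, nlrc3 MO (red) left of control MO (blue), each axis starting at 0. Circles, squares and triangles are replicates 1, 2 and 3, and black bars are the mean and SD of 3 samples. *cxcr4b* alone is higher in nlrc3 MO samples (mean 10.9 against 8.09 FPKM), and the *cxcr4a* values of the nlrc3 MO samples spread from 4.26 to 8.29 FPKM.

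Among the ligands, *cxcl12a* (ENSDARG00000037116) was at 9.21, 9.78 and 10.74 FPKM in nlrc3 MO samples, against 33.66, 36.7 and 36.15 FPKM in control MO samples. Every nlrc3 MO value thus lay far below every control MO value, and replicates were close to each other in both groups. The log2 fold change was -1.83 (standard error 0.069, limma, Benjamini-Hochberg adjusted p = 4.27e-07), and 10.1% of tested genes had a change at or below it. The paralog *cxcl12b* (ENSDARG00000055100), the ligand gene known from vessels, was at 25.53, 26.85 and 29 FPKM in nlrc3 MO samples, against 53.61, 50.25 and 50.76 FPKM in control MO samples. It was lower in all 3 nlrc3 MO samples too, though to a lesser degree. Its log2 fold change was -0.92 (95% interval -1.05 to -0.80, limma, Benjamini-Hochberg adjusted p = 4.87e-06), short of the fold change limit, and it was called only as TPM (-1.30). Summed, the ligand genes reached 37 ± 2.52 FPKM in nlrc3 MO cells and 87.1 ± 0.208 FPKM in control MO cells (SD, n = 3 each).

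Of the signalling receptors, *cxcr4a* (ENSDARG00000057633) was at 8.29, 5.94 and 4.26 FPKM in nlrc3 MO samples, against 27.6, 27.56 and 26.12 FPKM in control MO samples. The control MO samples were nearly alike and the nlrc3 MO samples were spread widely, with coefficients of variation of 32.8% in nlrc3 MO cells and 3.11% in control MO cells. The log2 fold change was -2.17 (standard error 0.21, limma, Benjamini-Hochberg adjusted p = 6.43e-05) and ran from -2.41 to -1.93 over fits that each left out 1 sample. The paralog *cxcr4b* (ENSDARG00000041959), which in fish is also carried by leukocytes, was at 10.84, 11.22 and 10.74 FPKM in nlrc3 MO samples, against 8.8, 7.92 and 7.54 FPKM in control MO samples. Here all nlrc3 MO samples were the higher ones, and they were the tighter group. The log2 fold change of 0.43 (95% interval 0.26 to 0.61, limma, Benjamini-Hochberg adjusted p = 0.00157) stayed under the fold change limit. It was 0.65 after median-of-ratios scaling but 0.06 as TPM, where the adjusted p was 0.504 (limma, Benjamini-Hochberg).

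The scavenging receptor gene *ackr3b* (ENSDARG00000058179) was at 3.44, 4.3 and 3.62 FPKM in nlrc3 MO samples, against 16.73, 16.97 and 17.21 FPKM in control MO samples. Replicates lay close together, above all in control MO cells, and every nlrc3 MO value was far below every control MO value. The log2 fold change was -2.14 (standard error 0.093, limma, Benjamini-Hochberg adjusted p = 8.65e-07). Its paralog *ackr3a* (ENSDARG00000062478) was barely present, at 0.07, 0.35 and 0.16 FPKM in nlrc3 MO samples and 1.2, 0.63 and 0.96 FPKM in control MO samples. The groups did not overlap, but their samples were widely spread, with coefficients of variation of 73.9% in nlrc3 MO cells and 30.8% in control MO cells. Its log2 fold change was -1.89 with the pseudocount of 0.1 and -0.69 with a pseudocount of 1, and no test of this change is given.

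The order of the levels differed between the groups. In nlrc3 MO cells *cxcl12b* was the highest, followed by *cxcr4b* and *cxcl12a*, whose values met at 10.74 FPKM, then by *cxcr4a* and *ackr3b*, whose ranges overlapped (lowest *cxcr4a* value 4.26 FPKM, highest *ackr3b* value 4.3 FPKM), and by *ackr3a*. In control MO cells the order was *cxcl12b*, *cxcl12a*, *cxcr4a*, *ackr3b*, *cxcr4b* and *ackr3a*, and no neighbours in it overlapped. Ranked among all tested genes of a sample, *cxcl12a* was on average at the 69.4th percentile of the FPKM in nlrc3 MO cells and the 88.8th in control MO cells, and *cxcr4a* at the 57.8th in nlrc3 MO cells and the 85.2nd in control MO cells. *cxcl12b* kept a high place in both, at the 87.2nd percentile in nlrc3 MO cells and the 92.4th in control MO cells. *cxcr4b* stood at the 71.6th percentile in nlrc3 MO cells and the 60th in control MO cells.

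The share of each paralog in the summed FPKM of its pair does not depend on how a library is scaled, and neither do log2 ratios, apart from the added 0.1 FPKM, which matters for genes as low as *ackr3a*. In the Cxcr4 pair, *cxcr4a* made up 43.3%, 34.6% and 28.4% of the summed FPKM in nlrc3 MO samples, against 75.8%, 77.7% and 77.6% in control MO samples. The *cxcr4b* gene was therefore the more abundant of the pair in every nlrc3 MO sample and the less abundant in every control MO sample. The log2 ratio of *cxcr4a* over *cxcr4b* averaged -0.87 ± 0.47 in nlrc3 MO cells and 1.73 ± 0.084 in control MO cells (SD, n = 3 each; a difference of -2.60, two-sided exact permutation p = 0.1, adjusted over 3 pairs p = 0.15). With 3 samples a group the smallest p that this test allows is 0.1, so none of these ratios could pass a limit of 0.05. In the ligand pair, *cxcl12b* made up 73.0% to 73.5% of the sum in nlrc3 MO samples and 57.8% to 61.4% in control MO samples, without overlap (a difference of 0.91 in the log2 ratio of *cxcl12b* over *cxcl12a*, two-sided exact permutation p = 0.1). Groups also did not overlap for 68.9% of all tested genes on plain FPKM. How often ratios of other gene pairs separate the groups was not counted. In the Ackr3 pair the shares of *ackr3b* overlapped, at 92.5% to 98.0% in nlrc3 MO samples and 93.3% to 96.4% in control MO samples (two-sided exact permutation p = 0.5). As *ackr3a* was so low, these values do not decide whether the pair changed unequally. The selection of *ackr3a* through control MO samples also enters the ratio of *ackr3b* over *ackr3a*.

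**Figure D2:**
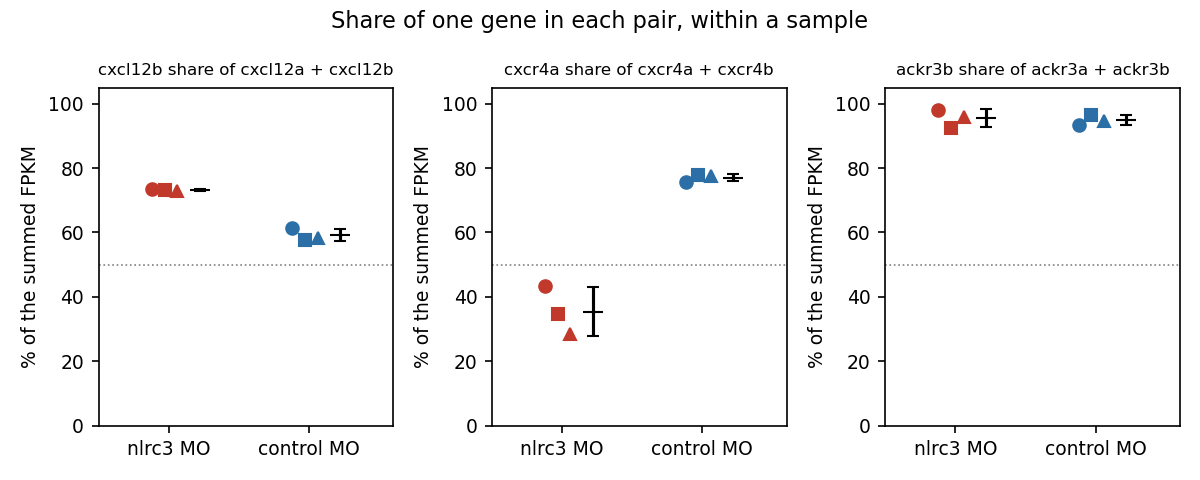
Share of the summed FPKM of each pair that came from *cxcl12b*, *cxcr4a* and *ackr3b*, in percent, in each nlrc3 MO (red) and control MO (blue) sample. Circles, squares and triangles are replicates 1, 2 and 3, black bars are mean and SD, and the dotted line is 50%. The *cxcr4a* share lies at 28.4% to 43.3% in nlrc3 MO samples and at 75.8% to 77.7% in control MO samples.

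The direction of *cxcl12a*, *cxcl12b*, *cxcr4a* and *ackr3b* was the same under all 3 other scalings (TPM, median of ratios, and rescaling after the 14 globin genes had been left out). The globins took 34.5% to 34.8% of the FPKM in nlrc3 MO samples and 15.6% to 15.7% in control MO samples. Over these scalings the log2 fold change was -2.21 to -1.62 for *cxcl12a*, -2.55 to -1.95 for *cxcr4a*, -2.53 to -1.93 for *ackr3b* and -1.30 to -0.71 for *cxcl12b*. For *cxcr4b* it was 0.06 to 0.65.

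**Figure D3:**
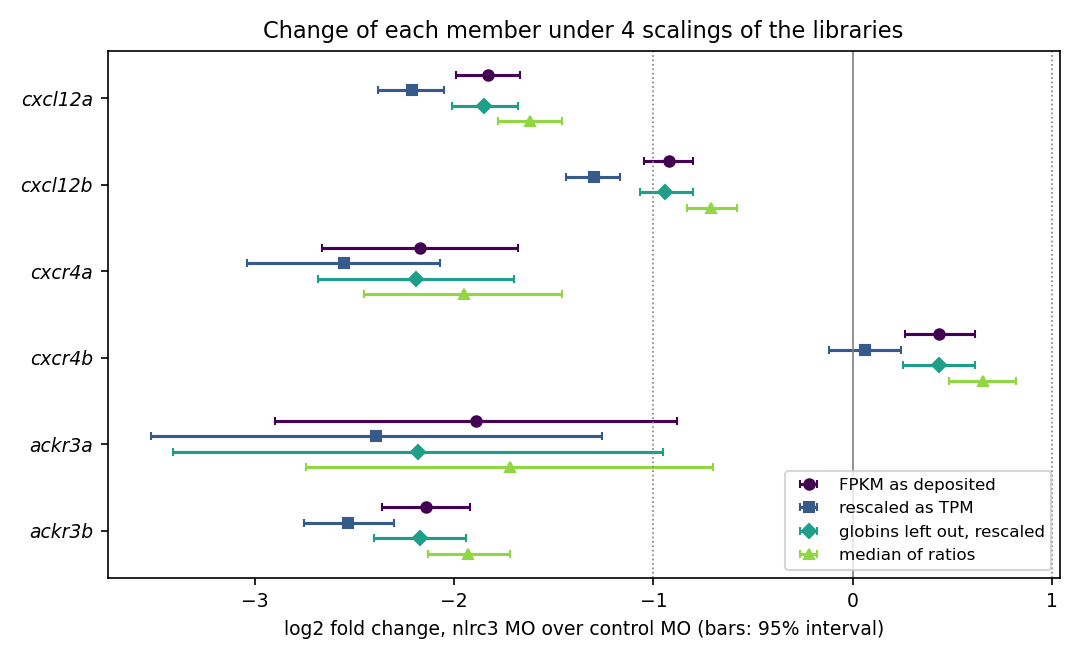
Log2 fold change of each gene (nlrc3 MO over control MO, horizontal axis) with its 95% interval from limma, for the FPKM as deposited and 3 other scalings of the libraries. Dotted lines mark the fold change limits. *ackr3a* passed the filter only through control MO samples, so its change and interval are drawn as a description. The *cxcr4b* interval crosses 0 only as TPM (-0.12 to 0.24), and *cxcl12b* passes the limit only as TPM.

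The sorted cells were checked against markers of the types the sort could hold. The defining endothelial genes were present in both groups, with *kdrl* at 49.1 ± 1.33 FPKM in nlrc3 MO cells and 64.2 ± 1.17 FPKM in control MO cells and *cdh5* at 47.8 ± 0.405 FPKM in nlrc3 MO cells and 61.8 ± 0.532 FPKM in control MO cells (SD, n = 3 each), and 3 of 20 tested endothelial markers were called lower (median log2 fold change -0.25, against -0.22 for all tested genes). Among the called was *fli1a*, the gene whose promoter drives the sorted EGFP, at 90.6 ± 3.13 FPKM in nlrc3 MO cells and 205 ± 2.76 FPKM in control MO cells (SD, n = 3 each), a call that was lost after median-of-ratios scaling, where 1 endothelial marker (*egfl7*) stayed called. The largest median changes were those of 4 lists of markers of other cell types. Over all tested genes 20.4% were called lower and 4.89% higher. Of 17 tested markers of neural crest and head mesenchyme, 16 were called lower, 6 of which had passed the filter only through control MO samples, with a summed level of 19.3 to 19.4 FPKM in nlrc3 MO samples and 925 to 947 FPKM in control MO samples, and none listed at 0 throughout (*twist1a* averaged 2.75 FPKM in nlrc3 MO cells and 233 FPKM in control MO cells). Of 12 leukocyte markers, 11 were called higher (7 as TPM), with sums of 1320 to 1350 FPKM in nlrc3 MO samples and 573 to 577 FPKM in control MO samples. The exception, *spi1b* (log2 fold change 0.81), was called higher only after median-of-ratios scaling. Of 12 erythroid markers, 8 were called higher (1 as TPM), with sums of 7570 to 7640 FPKM in nlrc3 MO samples and 3690 to 3710 FPKM in control MO samples. Of the lateral line and placode markers only 4 of 7 were tested and 3 of them called lower (*eya1*, *prox1a* and *six1b*, the last of which passed the filter only through control MO samples), with sums of 6.28 to 8.27 FPKM in nlrc3 MO samples and 26.5 to 31.2 FPKM in control MO samples. Not tested were *hmx2*, listed at 0 in all, *atoh1a* (mean 0.12 FPKM in nlrc3 MO cells and 0.343 FPKM in control MO cells) and *hmx3a* (0.04 and 0.277 FPKM). Whether the sort held such cells was not tested. The fourth tested, *cldnb*, which marks the lateral line primordium and skin, was at 5.56 ± 0.953 FPKM in nlrc3 MO cells and 2.93 ± 0.197 FPKM in control MO cells (SD, n = 3 each; log2 fold change 0.89, limma, Benjamini-Hochberg adjusted p = 0.00102) and was called higher after median-of-ratios scaling. The part that any of these other cell types had in the values of the chemokine and receptor genes was not tested. In bulk samples of this kind, fewer cells of a type and less RNA per cell cannot be told apart.

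**Figure D4:**
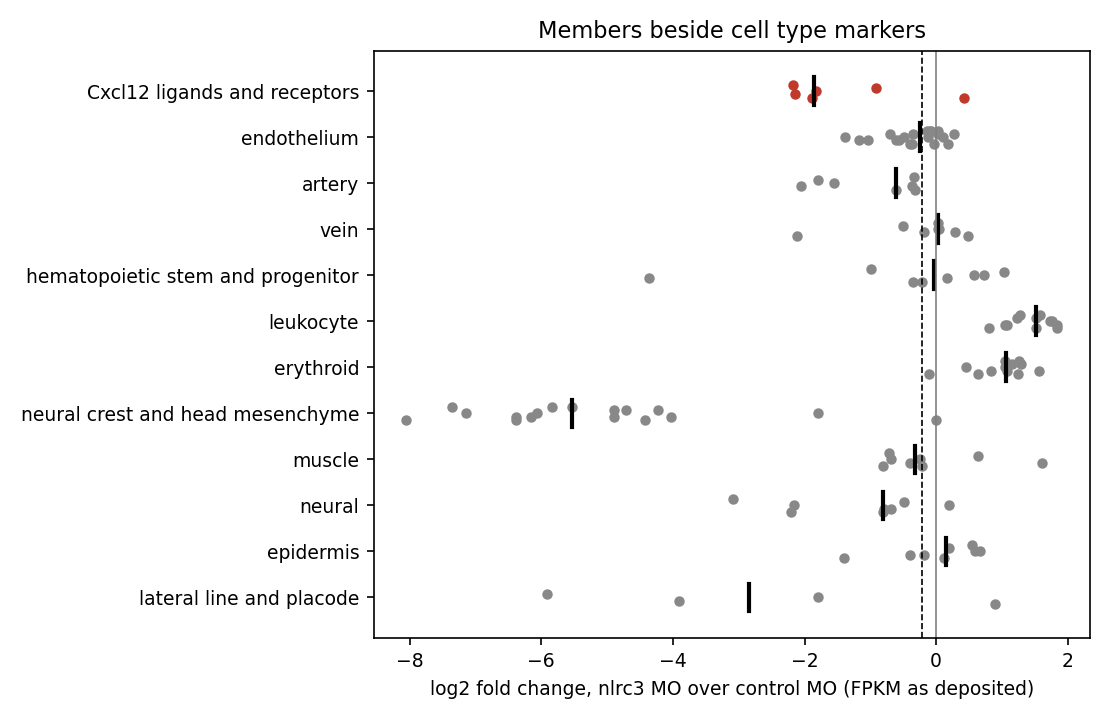
Log2 fold change (nlrc3 MO over control MO, FPKM as deposited) of each tested gene of the Cxcl12 axis (red, top row) and of each tested marker of 11 cell type lists (grey). Black bars are list medians, the dashed line is the median of all tested genes (-0.22) and the grey line is 0. The median of the 6 axis genes (-1.86) lies between those of the neural list (-0.8) and the lateral line and placode list (-2.85). The endothelial median is -0.25 and the neural crest and head mesenchyme median -5.54. Without genes that passed the filter only through control MO samples, the axis median is -1.83. The medians are then -1.8 for lateral line and placode (3 genes), -0.74 for neural and -4.9 for neural crest and head mesenchyme. *cxcr4b* (0.43) lies above 0, as do the medians of the vein (0.02), epidermis (0.15), erythroid (1.06) and leukocyte (1.52) lists.

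To set the axis beside the endothelial cells of the same sample, the mean log2(FPKM + 0.1) of the 20 tested endothelial markers was subtracted from the log2(FPKM + 0.1) of each gene, which takes out library scaling except for genes low enough for the added 0.1 to matter, such as *ackr3a*. On this measure *cxcr4a* was at -2.01, -2.53 and -2.97 in nlrc3 MO samples, against -0.67, -0.66 and -0.72 in control MO samples. The level of *cxcr4a* relative to endothelial markers was thus lower in all 3 nlrc3 MO samples (difference -1.82, two-sided exact permutation p = 0.1, the smallest possible, and 0.1 after adjustment over 6 genes). In bulk samples this measure cannot say in which cells the level differed, and that was not tested. The differences were -1.49 for *cxcl12a*, -0.58 for *cxcl12b*, -1.80 for *ackr3b* and 0.78 for *cxcr4b*, each without overlap of the groups and with the same p. On plain FPKM the groups did not overlap for 68.9% of all tested genes, and this share was not counted relative to endothelial markers. For *ackr3a* the difference was -1.54, given as a description only. The *cxcl12b* values lay just under the endothelial mean in nlrc3 MO samples (-0.40 to -0.23) and just above it in control MO samples (0.21 to 0.28).

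**Figure D5:**
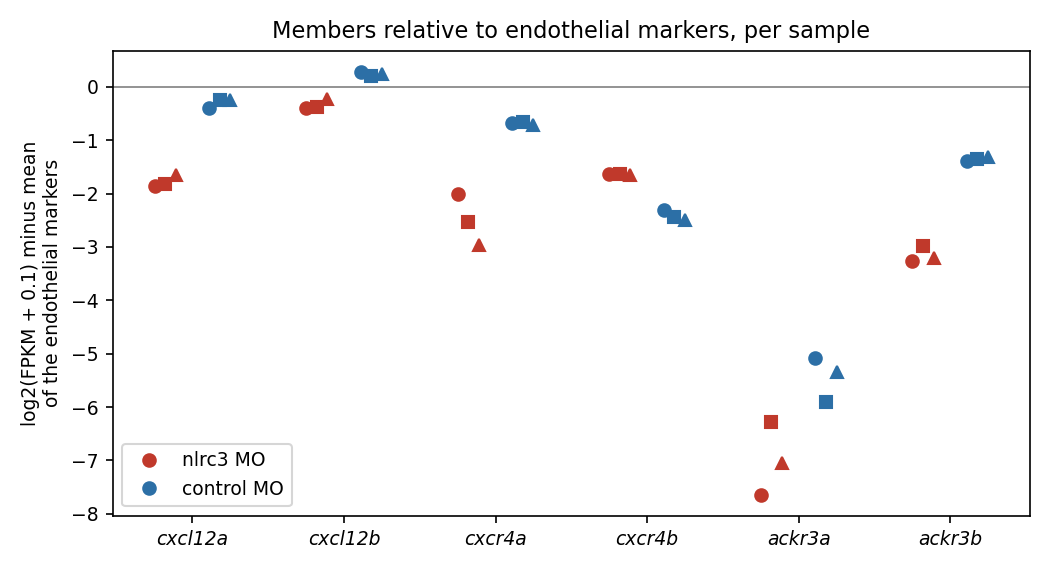
Level of each gene relative to endothelial markers, as log2(FPKM + 0.1) minus the mean over 20 endothelial markers of the same sample, in nlrc3 MO (red, left of each pair) and control MO (blue) samples. Circles, squares and triangles are replicates 1, 2 and 3. No gene's groups overlap, which on plain FPKM also held for 68.9% of all tested genes, and the share on this measure was not counted. *ackr3a*, which passed the filter only through control MO samples, is shown as a description. *cxcr4b* is the gene whose nlrc3 MO samples are the higher ones (-1.64 against -2.42 on average). The 20 markers themselves had a median log2 fold change of -0.25 in the deposited FPKM.

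Signal from Cxcr4 runs through inhibitory G proteins, Rac and its activators, focal adhesion kinases and Jak2. Of 27 such genes listed, 24 were tested, 7 were called lower and 3 higher, and the median log2 fold change was -0.17, against -0.22 over every tested gene. Shares called over every tested gene were 20.4% lower and 4.89% higher. Scaling by the median of ratios left 2 calls lower, as did a pseudocount of 1, and in TPM no gene of the list was called higher. The small GTPase gene *rac1a*, which drives actin protrusion, fell to 38.6 ± 1.27 FPKM in nlrc3 MO cells, against 93.4 ± 4.05 FPKM in control MO cells (SD, n = 3 each; log2 fold change -1.27, limma, Benjamini-Hochberg adjusted p = 2.66e-07). The inhibitory G protein gene *gnai3* was low, at 0.4 ± 0.142 FPKM in nlrc3 MO cells and 1.09 ± 0.178 FPKM in control MO cells (SD, n = 3 each; log2 fold change -1.28). The kinase gene *jak2a* rose to 97.2 ± 2.32 FPKM in nlrc3 MO cells, against 37.9 ± 0.536 FPKM in control MO cells (SD, n = 3 each; log2 fold change 1.36, limma, Benjamini-Hochberg adjusted p = 4.33e-08). *wasb*, an actin nucleation factor gene of blood cells, rose as well (log2 fold change 1.21, limma, Benjamini-Hochberg adjusted p = 0.000227).

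Receptor signalling is ended by kinases, arrestins and regulators of G protein signalling, and the receptor is then sorted to the lysosome or back to the surface. Of 17 such genes listed, 13 were tested, none was called lower and 2 were called higher, and the median log2 fold change was 0.17. Among all tested genes 20.4% were called lower and 4.89% higher, with a median of -0.22. The called genes were *rgs18*, a regulator of G protein signalling, which passed the filter only through nlrc3 MO samples, at 0.983 ± 0.222 FPKM in nlrc3 MO cells and 0.283 ± 0.146 FPKM in control MO cells (SD, n = 3 each), and *itcha*, named for the ubiquitin ligase that in human cells sends CXCR4 to the lysosome (log2 fold change 1.01). With a pseudocount of 1 neither was called, and 1 of these calls was left as TPM, with the filter at 1 FPKM, and without nlrc3 MO sample 1, control MO sample 1 or control MO sample 2. Another gene of the list, *rgs2* (log2 fold change -0.73), was called lower as TPM only. The most abundant genes of the list, the arrestin gene *arrb2b* and the endosomal sorting gene *hgs*, had log2 fold changes of 0.15 and 0.52 and were not called.

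A list of 9 genes held those for enzymes that modify the ligand or receptor, *mif* for an alternative ligand, and *cd74a* and *cd74b*. Of these, 7 were tested (all but *cd74a* and *cd74b*) and 2 were called lower (median log2 fold change -0.36), against 20.4% called lower and a median of -0.22 over all tested genes. As TPM and without nlrc3 MO sample 2, *mmp9* was called lower too. The matrix metalloprotease gene *mmp2*, whose human product can cleave CXCL12, fell to 17 ± 0.561 FPKM in nlrc3 MO cells, against 55.9 ± 1.49 FPKM in control MO cells (SD, n = 3 each; log2 fold change -1.72, limma, Benjamini-Hochberg adjusted p = 5.73e-08). *mif*, whose human product also binds CXCR4, fell to 3.07 ± 0.229 FPKM in nlrc3 MO cells, against 10.3 ± 0.384 FPKM in control MO cells (SD, n = 3 each; log2 fold change -1.71). The sulfotransferase gene *tpst1*, whose enzyme acts on chemokine receptors, was at 14.9 ± 1.08 FPKM in nlrc3 MO cells and 14.7 ± 1.48 FPKM in control MO cells (SD, n = 3 each).

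Of 24 listed genes for other CXC chemokines, their receptors and other atypical receptors, 21 were matched and 7 were tested, with 3 called lower and 2 higher (median log2 fold change -0.83), beside 20.4% lower and 4.89% higher among all tested genes. Of these calls *cxcl8a* had passed the filter only through control MO samples and *cxcl19* only through nlrc3 MO samples, and without them 2 of 5 were lower and 1 higher. The chemokine gene *cxcl18b*, which attracts neutrophils in fish, was at 0.67 ± 0.0458 FPKM in nlrc3 MO cells and 97 ± 3.2 FPKM in control MO cells (SD, n = 3 each; log2 fold change -6.98, limma, Benjamini-Hochberg adjusted p = 8.77e-10). In control MO cells it was thus more abundant than *cxcl12b* (51.5 FPKM), and in nlrc3 MO cells less abundant than any Cxcl12 gene. The neutrophil chemoattractant gene *cxcl8a* was listed at 0, 0 and 0.17 FPKM in nlrc3 MO samples and at 1.37, 2.45 and 2.56 FPKM in control MO samples, while *cxcl19* was listed at 0 in every control MO sample and averaged 1.41 FPKM in nlrc3 MO cells. The receptor gene *cxcr3.2*, known from fish macrophages, was higher in nlrc3 MO cells, at 7.89 ± 0.489 FPKM against 2.69 ± 0.745 FPKM in control MO cells (SD, n = 3 each; log2 fold change 1.55, limma, Benjamini-Hochberg adjusted p = 0.000241).

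By the Gene Ontology terms of the deposited table, the 6 genes shared 4 annotations, namely chemotaxis, cell chemotaxis, chemokine-mediated signaling pathway and immune response. Without the 6, the term chemotaxis held 21 tested genes, of which 9 were called higher and 3 lower, and their median log2 fold change was 0.87. For the chemokine-mediated signaling pathway the other 21 tested genes had 7 higher and 5 lower calls and a median of 0.62, and for immune response 8 of the other 59 were higher and 22 lower, with a median of -0.36. For cell chemotaxis 6 of the other 16 were higher and 4 lower, with a median of 0.84. Shares over all tested genes were 4.89% higher and 20.4% lower, with a median of -0.22. No test was made of these lists. Genes that passed the filter only through nlrc3 MO or only through control MO samples were not taken out of them.

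Over the 6 samples, the genes with a mean of at least 5 FPKM whose log2(FPKM + 0.1) ran most like that of 5 of the genes were found by Pearson's r, a description of likeness between samples that fall into the same 2 groups. For *cxcl12a* these were *hnrnpabb*, *nsd3* and *ptpro* (r from 0.9995 to 0.9999), and 1017 of 7632 genes exceeded 0.99. Pearson's r does not take in the size of a change. The log2 fold changes of *hnrnpabb*, *nsd3* and *ptpro* were -0.46, -2.23 and -2.36, against -1.83 for *cxcl12a*. For *ackr3b* the closest genes were *si:dkey-68o6*, *f3b* and *pdzrn3b* (r from 0.9997 to 0.9998, with 1041 genes above 0.99). For *cxcl12b* they were *prkd2*, *rnf168* and *txndc5*, and for *cxcr4a* *tasora*, *cstf3* and *pgam5*, with 727 and 99 genes above 0.99. The *cxcr4b* pattern was closest to that of the cyclin gene *ccnb1* (r = 0.9959), then *trim47* and *si:dkeyp-13d11*, with 12 genes above 0.99.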

How the data were processed

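RNA was sequenced by the authors from EGFP+ cells sorted by flow cytometry, 3 nlrc3 MO and 3 control MO samples, with 1 column of values each. According to the methods, reads were trimmed with Cutadapt, mapped with HISAT2, assembled with StringTie and gffcompare, and quantified with StringTie and ballgown. The submitters' processing notes instead name CASAVA 1.8, Bowtie 0.12.2 and a mouse build. The gene IDs of the table are zebrafish IDs, so its genes are not those of a mouse build. Which of the programs produced the values is not settled. The authors deposited FPKM with 2 decimals for 32057 genes. The names of the sample columns were read as nlrc3 MO and, for those starting with S, as the Standard-MO that the methods use as control, with the replicate number of the titles. The columns of the authors' own fold change, p-value and q-value were not used. Positions and sequences were not analysed here, and the genes most like *ackr3a* are not reported here.

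FPKM were used as deposited. Genes that reached 0.5 FPKM in no fewer than 3 of 6 samples were fitted on log2(FPKM + 0.1) with limma 3.58.1 in R 4.3.3 (lmFit, eBayes with a trend), with Benjamini-Hochberg adjustment over all 15155 genes tested. Ratios within samples were compared by two-sided exact permutation tests in scipy 1.17.1. The fit was tested on simulated data in which equal numbers of genes, all well above the filter, were raised and lowered. That test does not cover low genes or a shift of most genes. List genes were matched by symbol, or by gene ID where the table shortens the symbol. The 6 genes and all lists were chosen with earlier results of these data known. Named from each pathway list were the 2 called genes with the largest change in each direction and the 2 most abundant. From marker lists some of the defining genes and some other markers were named. Other settings tried were a pseudocount of 1 or 0.01, the filter removed or set to 1 FPKM, 3 other scalings, no trend, a replicate block, and leaving out each sample. Depth is unknown, so precision is that of 3 replicates.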

Additional observations from a re-analysis of the deposited data

How the results depend on the processing

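The calls of *cxcl12a*, *cxcr4a* and *ackr3b* were the same under all alternatives run, as were the signs of their fold changes and those of *cxcl12b* and *cxcr4b*. *cxcl12b* was called lower as TPM (-1.30). For *ackr3a*, whose selection favoured a difference, the log2 fold change was -0.69 with a pseudocount of 1, and the gene did not pass a filter at 1 FPKM. Leaving out each sample in turn gave -1.89 to -1.78 for *cxcl12a*, -0.97 to -0.88 for *cxcl12b*, -2.41 to -1.93 for *cxcr4a*, 0.38 to 0.49 for *cxcr4b*, -2.25 to -1.55 for *ackr3a* and -2.23 to -2.08 for *ackr3b*. The log2 ratio of *ackr3b* over *ackr3a* differed by -0.25 between the groups, by -1.22 with a pseudocount of 1, by 0.25 with 0.01, and by -0.53 to 0.019 when each sample was left out, with the sign turned without nlrc3 MO sample 2. Relative to endothelial markers, a pseudocount of 1 gave -0.35 for *ackr3a* and -1.57 for *ackr3b*, by adding more to low levels. Genes called higher numbered 295 as TPM, 1164 after median-of-ratios scaling, 354 with a pseudocount of 1 and 715 to 735 without single samples. Genes called lower numbered 1944 with a pseudocount of 1 and 2976 to 3127 without single samples. Of the counts of calls in the gene lists over these settings, 452 stayed within 1.5 times their value and 28 did not. The 452 include counts of 0 that stayed at 0, and the cause of the shifts was not tested. A replicate block gave 743 higher and 3102 lower calls and changed no call of *cxcl12a*, *cxcl12b*, *cxcr4a*, *cxcr4b* or *ackr3b*. Samples with the same number did not deviate together (correlations of 0.004, 0.04 and -0.003), so the number was not taken as a pairing. Low FPKM such as those of *ackr3a* limit what can be said of that gene.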

Other observations

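Of 9 listed factors of the responses to hypoxia and blood flow, 7 were tested and 1 was called lower (median log2 fold change -0.41), or 2 as TPM, beside 20.4% of all tested genes in the main fit. The called gene, *klf2a*, encodes a transcription factor induced by blood flow and was at 7.89 ± 0.646 FPKM in nlrc3 MO cells and 60.1 ± 1.71 FPKM in control MO cells (SD, n = 3 each; log2 fold change -2.92, limma, Benjamini-Hochberg adjusted p = 3.51e-08). The most abundant gene of the list, *hif1al*, was at 42.1 ± 1.75 FPKM in nlrc3 MO cells and 64.4 ± 1.55 FPKM in control MO cells (SD, n = 3 each) and was not called.

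Of the artery markers 3 of 7 tested were called lower, of the vein markers 1 of 8, and of the hematopoietic stem and progenitor markers 1 of 8, with 1 more called higher. Over all tested genes 20.4% were called lower and 4.89% higher. As TPM 2 of the stem and progenitor markers were called lower and no marker of that list higher, and 2 were also called lower without nlrc3 MO sample 1, nlrc3 MO sample 2 or control MO sample 2 and after leaving out the globins. Of 8 tested markers each, 1 muscle gene was called higher (*myog*, which passed the filter only through nlrc3 MO samples), 3 neural genes were called lower (2 of them, *neurod1* and *pax6a*, having passed only through control MO samples), and the epidermis genes were not called (*krt4* at 56 ± 0.933 FPKM in nlrc3 MO cells and 51.6 ± 2.45 FPKM in control MO cells, SD, n = 3 each, limma, Benjamini-Hochberg adjusted p = 0.0408). The epidermis gene *epcam* was at 9.75 ± 1.08 FPKM in nlrc3 MO cells and 6.61 ± 0.247 FPKM in control MO cells (SD, n = 3 each; log2 fold change 0.55, limma, Benjamini-Hochberg adjusted p = 0.00158). Of the 8 epidermis genes, 3 had a log2 fold change below 0. As TPM 3 muscle genes and 6 neural genes were called lower. Without nlrc3 MO sample 1 a muscle gene was called lower, without nlrc3 MO sample 2 an epidermis gene was, and with a pseudocount of 1 or the filter at 1 FPKM no muscle gene was called higher.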
